A study of Mus musculus with 4 samples.

Results

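Among single cells of a mouse spermatogonial culture, those in which Malat1 and Neat1 together made up at least 8% of the unique molecular identifiers (UMIs, each standing for 1 captured RNA molecule) were taken as Malat1-rich cells. They numbered 2860 of the 23207 cells kept, which were barcodes with more than 400 and fewer than 4000 detected genes and under 10% of UMIs from mitochondrial (mt-) genes. There were 622 of 8896 cells in vehicle 1, 653 of 9334 in vehicle 2 and 1585 of 4977 in EV 1. The group was defined by its level of these RNAs and not by a cell type marker, and the data did not give it a cell type name, since its cells divided over fibroblast-marked, germ-marked and unmarked cells as described further on.

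The primary spermatogonial culture came from 3 male mice aged 6 postnatal days. Their testis cells had been selected for Thy1, which enriches for undifferentiated spermatogonia, and plated on a feeder layer of STO cells, an embryonic mouse fibroblast line, so that every library could hold germ cells, feeder fibroblasts and other testis cells. For 3 days the culture received either PBS (vehicle) or 1 μg/mL of PND7 testis EVs, extracellular vesicles from testes of mice 7 days after birth. There were 2 libraries in each arm, of which vehicle 1, vehicle 2 and EV 1 entered with counts, while the expression of EV 2 was not analysed here and only its barcode list was read. The labels name for these groups no transgene, deletion or further agent.

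Malat1 is a long noncoding RNA that is retained in the nucleus, where it gathers in nuclear speckles, the bodies that store splicing factors. Neat1, its neighbour on the chromosome, is the RNA scaffold of paraspeckles. Ribosomal protein mRNAs, by contrast, are short and abundant and are found in the cytoplasm, and the mt- RNAs are made inside mitochondria. The ratio between such RNAs in a barcode is therefore a common reading of how much nuclear and how much cytoplasmic RNA it holds.

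Because UMIs of these 2 transcripts alone define the group, a stretch of each is shown. In the GRCm38 build (GENCODE vM21) Malat1 lies on the minus strand of chromosome 19 from 5795690 to 5802672 and Neat1 on the same strand from 5824708 to 5845478, with 22035 bases between them. The longest annotated transcript of each was used (Malat1-201 of 6983 bases and Neat1-201 of 20771 bases). Both are unspliced lincRNAs of 1 exon, and shorter transcripts were not read. The windows of 30 bases, given 5′ to 3′ on the transcript strand, are centred on the longest run of A in each transcript, which is in capitals, since cDNA in droplet libraries of this kind is primed on A. The first window is at chr19:5795979-5796008 and the second at chr19:5835922-5835951.
Malat1: cctagctttAAAAAAAAAAAAgcaaaagac
Neat1: gcctggactatAAAAAAAccttcatgagga
The run in Malat1 had 12 bases and ended 298 bases before the 3′ end of the transcript, and that in Neat1 had 7 bases and ended 11226 bases before it. Malat1 held 1 run of at least 8 A and Neat1 held 0. Where along the transcripts the UMIs arose was not analysed here.

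Almost all of the defining signal was Malat1. It accounted for 99.0%, 98.9% and 99.1% of the UMIs of the pair in Malat1-rich cells of vehicle 1, vehicle 2 and EV 1, and Malat1 alone reached 8% in 611, 644 and 1572 of them. Malat1 made up 13.8%, 14.0% and 15.1% of all UMIs of Malat1-rich cells against 1.78%, 2.02% and 2.65% in cells under 8%. For Neat1 the shares were 0.143%, 0.154% and 0.137% against 0.0167%, 0.0149% and 0.0308%. These values chose the cells and are given as a description, without a test. The cells with the largest share reached 41.0%, 33.0% and 43.6%.

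The class was cut from a per-cell share, with cells on both sides of the line. Just inside it, at 8% to 9%, lay 72, 91 and 147 cells of vehicle 1, vehicle 2 and EV 1, and just outside it, at 7% to 8%, lay 68, 101 and 165 cells. The counts did not fall evenly in every class of cells. Among the unmarked cells of EV 1 described further on, 33 lay at 6% to 7% and 57 at 10% to 11%, and in vehicle 1 there were 10 at 7% to 8% and 19 at 9% to 10%. Whether the class is a population of its own was not tested. Its median share was 12.7%, 13.2% and 14.0%.

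**Figure D1:**
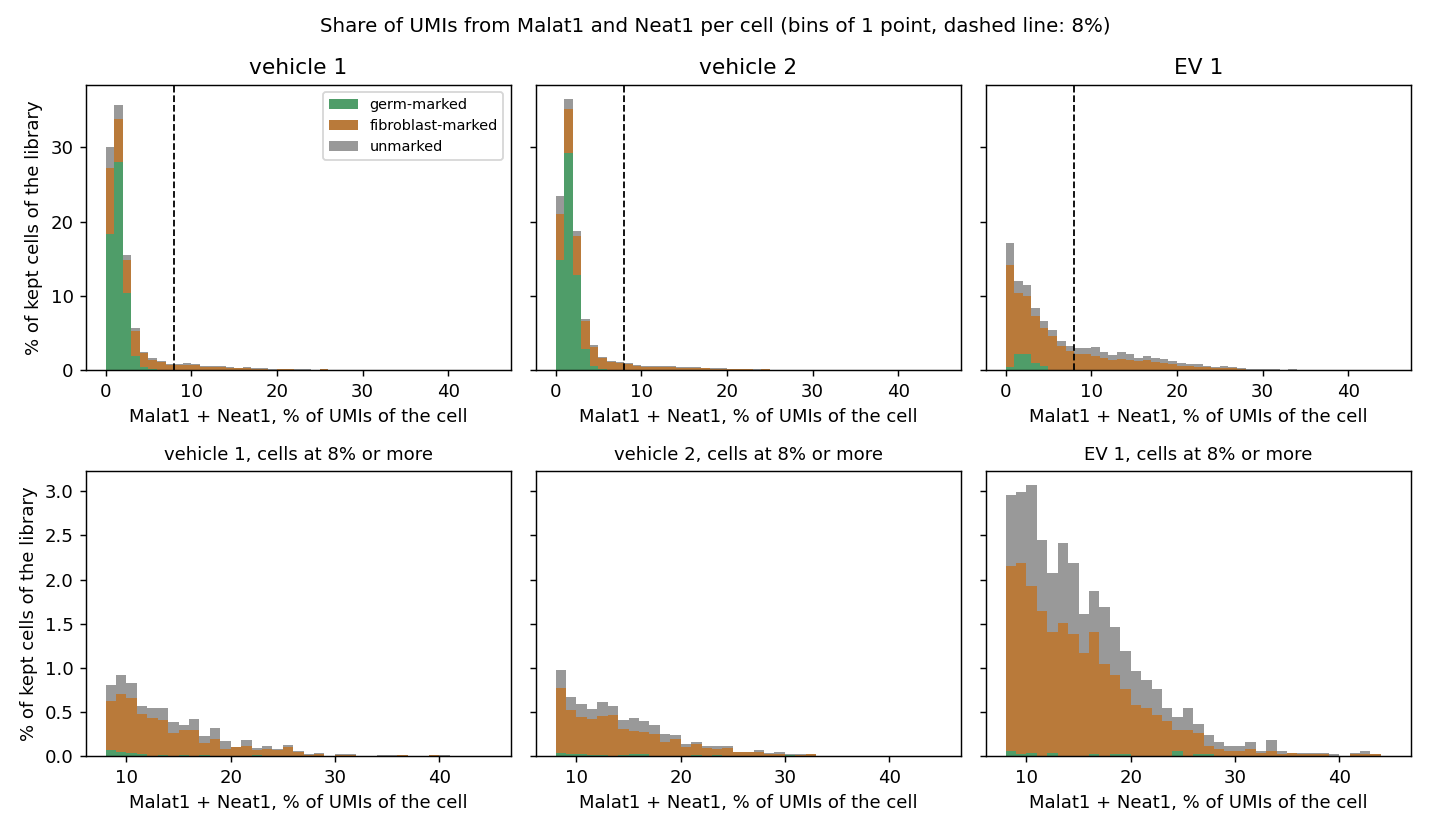
Histograms of the share of Malat1 and Neat1 UMIs per cell in bins of 1 percentage point, as percent of the kept cells of each library, with germ-marked, fibroblast-marked and unmarked cells stacked and a dashed line at 8% (top), and the same for cells at 8% or more on a larger scale (bottom). The bins next to the line on either side hold cells in each library, and fibroblast-marked cells make up most of the tail in the 3 libraries.

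Malat1-rich cells were a larger share of the EV 1 library than of both vehicle libraries. In vehicle 1 they were 6.99% of kept cells, with a 95% Wilson interval from 6.48% to 7.54%. In vehicle 2 they were 7.00% (from 6.50% to 7.53%), and in EV 1 they reached 31.8% (from 30.6% to 33.2%). EV 1 exceeded the vehicle mean by 24.9 percentage points, with an SD of 0.00284 points between the 2 vehicle libraries, which is smaller than the counting interval of either library. Intervals here and below cover counting error only. With 1 EV library no test was possible and the difference has no replicate check. EV 1 also held few germ cells, as germ-marked cells were 6.63% of its kept cells against 59.5% and 60.8% in the vehicle libraries. The part of this mix in the difference was not tested. Within fibroblast-marked cells, which still held some germ RNA in amounts that differed between the arms, the Malat1-rich share was 15.6%, 16% and 28.7% (the EV 1 interval running from 27.3% to 30.2%), a difference of 12.9 points with a vehicle SD of 0.246 points.

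The libraries held 23686047, 27444797 and 10793232 UMIs in 9291, 9738 and 5249 barcodes. Any 2 libraries shared at most 22 barcodes, and among Malat1-rich cells the pairs shared 0, 1 and 0. The labels call the 2 vehicle libraries biological replicates. Doublets, which the study had removed, were kept here. A doublet caller (Scrublet) marked 6.11%, 5.36% and 4.79% of the Malat1-rich cells and 7.19%, 7.63% and 3.60% of the others.

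Most Malat1-rich cells carried fibroblast RNA. A cell was called germ-marked when it had more UMIs of the germ sum (Dazl, Tex15, Stk31 and Epcam) than of the fibroblast sum (Col1a1, Col1a2, Sparc and Dcn), fibroblast-marked in the reverse case, and unmarked when they were equal. Dazl is an RNA-binding protein of germ cells, Tex15 acts in transposon silencing and meiosis, Col1a1 and Col1a2 encode type I collagen, and Sparc and Dcn are matrix proteins of connective tissue. Of Malat1-rich cells, 71.9%, 73.4% and 65.1% were fibroblast-marked, 3.05%, 2.60% and 1.01% were germ-marked, and 25.1%, 24.0% and 33.9% were unmarked. Among cells under 8%, 63.7%, 65.2% and 9.26% were germ-marked. When 14 germ and 19 fibroblast genes were used in place of the sums of 4, 99.0%, 98.8% and 99.9% of Malat1-rich cells were fibroblast-marked, and 3, 4 and 1 cells were germ-marked. The longer lists raised that share in cells under 8% as well, from 29.2%, 29.0% and 75.6% to 45.6%, 40.8% and 94.5%.

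Read from the other side, 19 of 5291 germ-marked cells were Malat1-rich in vehicle 1 (0.359%), 17 of 5673 in vehicle 2 (0.300%) and 16 of 330 in EV 1 (4.85%, Wilson interval from 3.01% to 7.73%). The unmarked cells were Malat1-rich in 21.0%, 23.8% and 51.0%. Malat1-rich cells were thus common among fibroblast-marked and unmarked cells and scarce among germ-marked cells of the vehicle libraries.

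The germ sum was lower in Malat1-rich cells than in other cells of each library. Per 1000000 UMIs other than Malat1 and Neat1 (CPM, the scale used for levels throughout), it was 112 against 1280 in vehicle 1 (exact Poisson intervals 92.8 to 134 and 1265 to 1295), 71.5 against 1352 in vehicle 2 (57.2 to 88.4 and 1338 to 1367) and 17.8 against 125 in EV 1 (12.5 to 24.5 and 117 to 133). It was 11.4, 18.9 and 7.03 times lower. The fibroblast sum went in different directions, at 1442 against 1154, 1497 against 1138 and 1277 against 1718 CPM, so it was higher in Malat1-rich cells of the vehicle libraries and lower in those of EV 1. Within fibroblast-marked cells it was lower in Malat1-rich cells of each library, at 1783 against 2438, 1820 against 2435 and 1701 against 1991 CPM.

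Some germ RNA was also counted in fibroblast-marked cells, which by their definition have fewer germ than fibroblast UMIs. In these cells the germ sum was 43.0 CPM in Malat1-rich and 54.0 CPM in other cells of vehicle 1, 37.7 and 62.4 CPM in vehicle 2, and 3.20 and 3.85 CPM in EV 1, from 37, 37 and 5 UMIs in the Malat1-rich cells. With every cell thinned to 800 UMIs other than Malat1 and Neat1, a germ UMI was found in 6.86%, 5.25% and 1.29% of Malat1-rich cells and in 57.8%, 58.4% and 8.46% of the others, and without thinning in 9.16%, 7.96% and 1.45% against 69.4%, 70.2% and 10.6%. A fibroblast UMI was found in 57.5%, 60.4% and 56.1% of the thinned Malat1-rich cells against 30.3%, 28.8% and 61.1%, and without thinning in 74.3%, 75.3% and 65.3% against 46.1%, 43.5% and 77.7%. Free RNA and doublets can both add such UMIs, and their part was not tested. Thinning left out 112, 120 and 501 Malat1-rich cells and 228, 200 and 284 others that were shallower.

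Markers of other cell types, summed over each list, were at low levels in Malat1-rich cells, though some lay above the other cells. Y-linked genes, which the cells of male pups carry, summed to 10.2, 4.16 and 0.961 CPM against 99.2, 101 and 12.3 CPM in cells under 8%. The Leydig list was at 13.9, 13.3 and 11 CPM against 5.49, 5.54 and 2.41 CPM, nearly all of it Star, with 14, 16 and 22 UMIs, while Cyp11a1 and Insl3 had 0 UMIs in Malat1-rich cells of each library. The erythroid list was at 24.0, 32.4 and 17.8 CPM against 2.14, 2.93 and 3.30 CPM, from 26, 38 and 37 UMIs of Alas2, the first enzyme of heme synthesis, whereas the 4 globin genes had 1 UMI in all. The endothelial list stood at 26.8, 18.3 and 23.5 CPM against 13.5, 13.4 and 6.86 CPM. The macrophage list stood at 25, 14.1 and 15.4 CPM against 10.4, 10.0 and 25.4 CPM, with C1qa and C1qb at 0 UMIs in Malat1-rich cells. The Sertoli list stood at 183, 174 and 230 CPM against 165, 170 and 286 CPM and the myoid list at 25, 26.6 and 19.7 CPM against 22.0, 21.8 and 18.3 CPM. These sums are over all cells, so the mix of classes enters them. Within fibroblast-marked cells the Sertoli list was at 199, 182 and 235 against 301, 319 and 307 CPM. The myoid list was there at 20.9, 24.5 and 17.3 against 29.6, 30.5 and 19.1 CPM. Y-linked genes were there at 9.30, 1.02 and 0.641 against 7.50, 6.84 and 0.889 CPM. The Leydig, erythroid, endothelial and macrophage lists kept their directions there. The part of other cell types in the gene content given below was not tested.

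Malat1-rich cells were shallower. Their median was 1641, 1708 and 1259 UMIs per cell against 2107, 2314 and 2097 in cells under 8%, which is 0.779, 0.738 and 0.600 of it, and their median number of detected genes was 1098, 1106 and 842 against 1316, 1429 and 1117. The gap was wider within fibroblast-marked cells of the vehicle libraries, at 1870 against 3614 and 1960 against 3982 UMIs, than in EV 1, at 1530 against 2433. The 19, 17 and 16 germ-marked Malat1-rich cells had medians of 2836, 1513 and 1512 UMIs against 1919, 2088 and 1242 and showed no common direction.

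Their mt- share was higher when pooled over cells, but not in every class or by every measure. Pooled over cells, mt- UMIs were 4.41%, 3.75% and 3.29% of UMIs other than Malat1 and Neat1, against 2.99%, 2.73% and 1.96% in cells under 8%. In fibroblast-marked cells the values were 4.57%, 3.93% and 3.40% against 2.06%, 1.82% and 1.84%. In germ-marked cells the pooled difference had no common direction, at 4.22%, 2.96% and 2.83% against 3.76%, 3.48% and 3.44%. The median share per cell, over all UMIs of the cell, was 3.58%, 2.65% and 2.13% in Malat1-rich cells against 3.28%, 2.98% and 1.80%, so it was lower in vehicle 2. Within fibroblast-marked cells the medians were 4.06%, 2.92% and 2.60% against 1.88%, 1.65% and 1.65%, and within unmarked cells 2.17%, 1.73% and 1.21% against 3.29%, 2.99% and 1.78%. The pooled share of unmarked cells went the other way, at 3.65%, 2.99% and 2.96% against 3.16%, 2.90% and 2.14%. By both measures the share was thus higher in fibroblast-marked cells of each library, while for unmarked cells the measures differed in direction. The filter on mt- UMIs also took out Malat1-rich barcodes, since 89 of 395 barcodes outside the filters were Malat1-rich in vehicle 1, 77 of 404 in vehicle 2 and 131 of 272 in EV 1, and 82, 67 and 89 of these were over the mt- limit.

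Counted per cell, fibroblast-marked Malat1-rich cells held more Malat1 and Neat1 and less of most other RNA. A cell held on average 305, 331 and 262 Malat1 UMIs against 83.5, 108 and 71.6, which is 3.65, 3.07 and 3.65 times as many, and for Neat1 the ratios were 2.95, 3.29 and 2.83. UMIs of all other genes were 0.491, 0.477 and 0.574 of those in cells under 8%. Both a larger numerator and a smaller remainder thus entered the 8% share. Ribosomal protein UMIs were 0.121, 0.107 and 0.170 of those in the other cells, mt- UMIs were 1.09, 1.03 and 1.06 of them, and UMIs of long chromatin regulator genes were 1.23, 1.16 and 1.49 of them. UMIs of nuclear lncRNAs, summed over their list, were 0.835, 0.808 and 0.783 of those in the other cells. In these droplet data less RNA per cell and fewer captured molecules cannot be told apart.

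**Figure D2:**
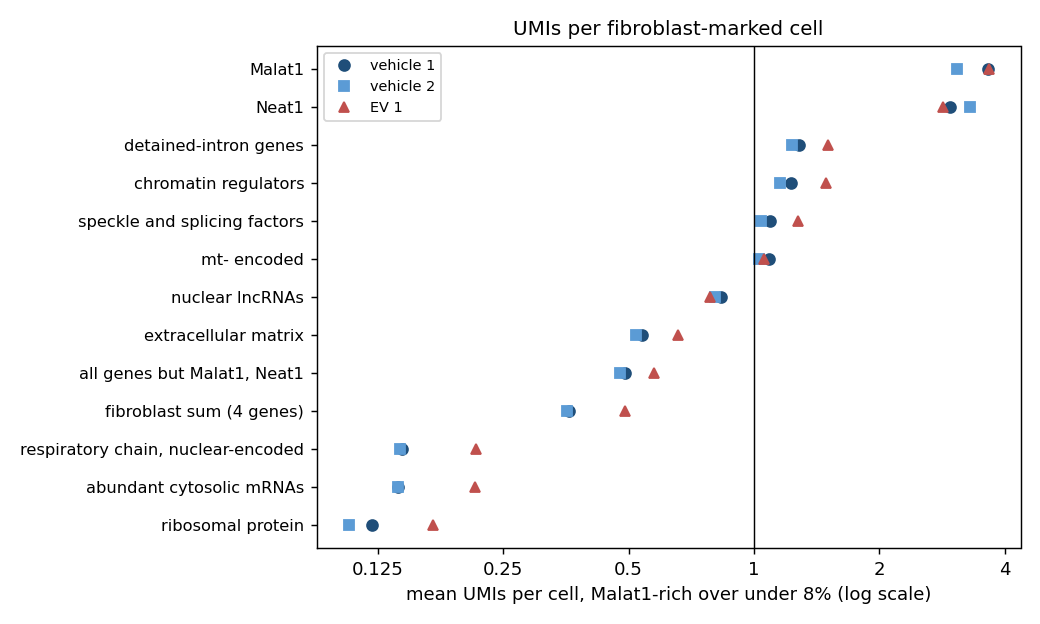
Ratio of mean UMIs per cell, Malat1-rich over under 8%, in fibroblast-marked cells on a log axis, with 1 symbol per library for Malat1, Neat1, all other genes and summed gene lists. Malat1 lies between 3.07 and 3.65, mt- genes between 1.03 and 1.09, and ribosomal protein genes between 0.107 and 0.170.

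To limit the part of the mix of cell types in gene content, UMIs were summed per library within fibroblast-marked cells, which still held some germ RNA. A gene was called when its level in Malat1-rich cells was at least 2-fold higher, or at least 2-fold lower, in each of the 3 libraries. The contrast is the one that chose the cells, so no test was made. Of 10269 genes with at least 200 UMIs, 3138 (30.6%) were called higher and 739 (7.2%) lower. The median gene had a log2 ratio of 0.65, 0.64 and 0.68 in the 3 libraries. Relative to that median, 905 genes (8.81%) were higher and 1850 (18%) lower, and counts on this second scale are given after those on the first.

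Ribosomal protein genes, the parts of the cytoplasmic ribosome, were lower almost without exception. Of 80 measured, 0 were higher and 79 lower on both scales, against the 7.2% and 18% called lower among all genes. They summed to 5.02%, 4.42% and 6.39% of UMIs in Malat1-rich cells and to 20.3%, 19.8% and 21.6% in the others. Rpl32 stood at 859, 860 and 1097 CPM against 4070, 3947 and 4217 CPM, a mean log2 ratio of -2.13 ± 0.16 (SD, n = 3 libraries). Reads of this family are uncertain in part, as many of its genes have near-identical pseudogenes. Rpl7l1 was the member that was not called, at log2 ratios from -0.80 to -0.11.

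Nuclear-encoded subunits of the respiratory chain moved the same way, with 0 of 35 higher and 33 lower (0 and 34 relative to the median). Cox8a, a subunit of cytochrome c oxidase, had log2 ratios of -1.80, -1.67 and -1.51, and Atp5a1 and Atp5b, of the ATP synthase, were not called. Of 13 mt- genes, 4 were higher and 0 lower (1 and 0), a share close to the 30.6% and 8.81% of all genes that were higher. Of these, mt-Nd6 had log2 ratios of 1.83, 1.94 and 1.79, and the other 12 lay between 0.69 and 1.59. The median of the mt- genes was 1.23, 1.2 and 0.95, beside 0.65, 0.64 and 0.68 for all genes.

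Abundant mRNAs of cytosolic proteins were also lower, in 20 of 26 genes with 0 higher (25 and 0), against 7.2% and 18% of all genes lower. Tpt1, a translationally controlled protein, had log2 ratios of -2.29, -2.38 and -1.90, Gapdh, a glycolytic enzyme, -1.99, -1.88 and -1.43, and Actb, which encodes beta-actin, -1.86, -1.71 and -1.30. Of 17 genes of the secretory pathway, which make proteins of the endoplasmic reticulum, 0 were higher and 4 lower (0 and 12, beside the same 7.2% and 18% of all genes lower), among them Sec61g and Sec61b of the translocation channel.

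Most nuclear lncRNAs stood on the other side when taken singly. Of 10 measured, 7 were higher and 1 lower on both scales, against 30.6% and 8.81% of all genes higher. By kind, 61.0% of lincRNAs and 72.6% of antisense genes were higher on the first scale. Summed, the list stood at 2758, 2693 and 2330 CPM against 1622, 1590 and 1710 CPM. Kcnq1ot1 and Airn, which silence imprinted neighbours, had log2 ratios of 1.86, 1.81 and 1.93 and of 2.04, 1.93 and 2.10, and Snhg14 had 3.13, 3.23 and 2.88. Gas5, a spliced host gene of small nucleolar RNAs that reaches the cytoplasm, was the one that was lower, at -1.59, -1.78 and -1.76. Tug1 and Snhg1 were not called, at values from 0.84 to 1.2 and from -0.57 to -0.31.

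Transcripts known to keep introns in the nucleus were higher in 11 of 13 genes with 0 lower (4 and 0 relative to the median), against 30.6% and 8.81% of all genes higher. Clk4, a kinase of splicing factors, had log2 ratios of 2.00, 1.97 and 1.87, Ogt, which attaches N-acetylglucosamine to proteins, 2.18, 2.15 and 2.04, and Ccnl2, a cyclin bound to speckles, 1.73, 2.09 and 1.93. Chromatin regulators with long genes were higher in 18 of 22 with 0 lower (3 and 0). Their gene bodies ran from 34611 to 353325 bases, and beside the 30.6% of all genes, 47.2% of genes with bodies of 50 to 100 kb and 73.4% of those of 100 to 300 kb were higher. The histone methyltransferase Nsd1 led them at 2.82, 2.62 and 3.19, the remodeler Arid1b had 1.78, 1.73 and 1.81, and Chd4 was not called, at 0.23, 0.35 and 0.56. Both lists thus lay above the median of all genes, while most of their members passed 2-fold only before the median was subtracted.

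The mRNAs for proteins of the bodies in which Malat1 and Neat1 reside were less uniform. Of 22 speckle and splicing factor genes, 8 were higher and 0 lower (3 and 0), close to the 30.6% and 8.81% of all genes higher, with Prpf4b at 2.25, 2.12 and 2.28 and Srsf3 at -0.36, -0.09 and -0.19. Of 10 paraspeckle protein genes, 4 were higher and 0 lower on the first scale but 0 were higher and 2 lower relative to the median, a first count that is also near that of all genes. Pspc1, a paraspeckle component, had 1.45, 1.68 and 1.72, while Nono, a core paraspeckle protein, had 0.32, 0.06 and -0.00.

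**Figure D3:**
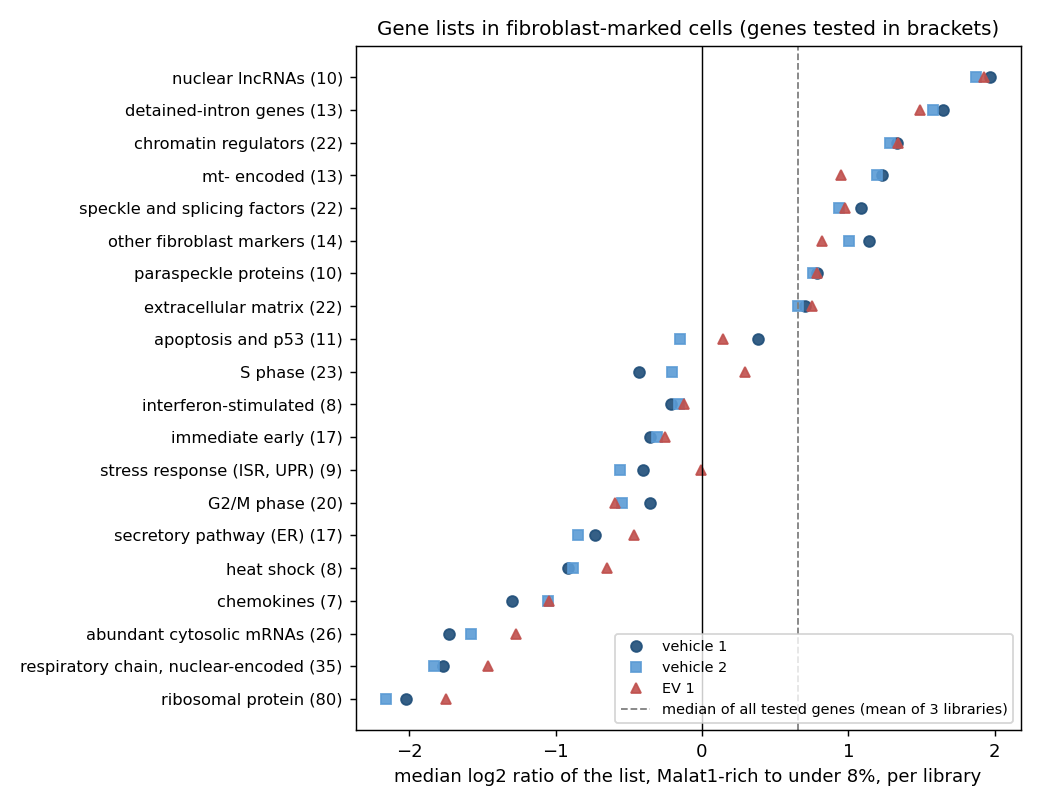
Median log2 ratio of each gene list with at least 7 measured genes, Malat1-rich to under 8%, in fibroblast-marked cells, with 1 symbol per library, the number of genes measured in brackets, a solid line at 0 and a dashed line at the median of all tested genes. Nuclear lncRNAs lie furthest right (1.87 to 1.97) and ribosomal protein genes furthest left (-2.16 to -1.75) in each library.

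Genes that mark fibroblasts had no single direction. Of 14 measured fibroblast markers outside the sum, 6 were higher and 3 lower (1 and 4), beside 30.6% higher and 7.2% lower among all genes (8.81% and 18% relative to the median). The higher ones were Col5a2, Col4a2, Fn1, Fbn1, Pdgfra and Pdgfrb, which encode matrix proteins and growth factor receptors, with Col5a2 at 1.83, 1.81 and 1.96. The lower ones, S100a6, Lgals1 and Timp1, encode a calcium-binding protein, a galectin and a protease inhibitor, with S100a6 at -1.81, -1.79 and -1.34. The collagens Col3a1 and Col4a1 and the collagen cross-linking enzyme Lox were not called. In the 4-gene sum Col1a1 (0.76, 0.97 and 0.80) and Col1a2 (0.87, 0.72 and 0.90) lay above 0, and Dcn (-0.85, -0.82 and -0.47) and Sparc (-0.84, -0.72 and -0.29) below. Of 22 extracellular matrix genes, 7 were higher and 1 lower, near the share of all genes, which turned to 2 and 6 relative to the median, and Tnc was highest of the list at 2.22, 2.12 and 2.15.

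The lists of stress, cytokine and cycle genes had few members called higher, beside 30.6% of all genes (8.81% relative to the median). Their members called lower are to be read beside the 7.2% of all genes (18% relative to the median). Of 17 immediate early genes 1 was higher, Fosb at 1.68, 1.34 and 1.82, and 0 lower (0 and 5), while Fos stood at -0.59, -0.31 and -0.82. Of 8 heat shock genes 2 were lower, Hspe1 and Cryab (6 relative to the median), and 0 higher. Of 9 genes of the integrated stress and unfolded protein responses 1 was lower, Hmox1 (2), and 0 higher. Of 11 genes of apoptosis and p53, Bcl2l11 and Trp53inp1 were higher and Bax and Cdkn1a lower (0 and 4), so the list had no single direction. Metallothioneins, which bind zinc, were lower in 2 of 3, with Mt1 at -1.79, -1.57 and -1.41 (2 relative to the median). Chemokines were lower in 3 of 7, Ccl2, Ccl7 and Ccl5 (6), and interferon-stimulated genes in 2 of 8, Isg15 and Bst2 (3), with 0 higher in both lists. Of 23 S phase genes 1 was lower, Mcm3 (3), and of 20 G2/M genes 1 was lower, Birc5 (7), with 0 higher. Of the 4 germ sum genes, 3 other germ markers and 6 genes of spermatogonial state that were measured, 0 were called in either direction (1 lower in each list relative to the median). Single measured genes stood for the Sertoli (Sox9), myoid (Des) and macrophage (Cd68) lists, and of these Des, an intermediate filament protein of muscle, was lower at -2.24, -1.91 and -1.32.

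The genes with the largest ratios were mostly little-studied transcripts at low levels. The minimum of 200 UMIs counts Malat1-rich and other cells together, so a low gene can pass it through being high in Malat1-rich cells. Gm49418, for example, had 31, 50 and 65 UMIs in Malat1-rich cells and 19, 23 and 16 in the others. Among low genes the minimum thus favours large ratios. Among the 10 highest were Gm49418, Gm24474, Gm11655, Glp2r, Fam227b, Uchl4, Gm11457, Gm36992 and Lrrc55, with mean log2 ratios between 4.16 and 4.56. Fam227b had 244, 358 and 558 UMIs in Malat1-rich cells and 122, 150 and 156 in the far more numerous UMIs of the other cells, which is 284, 365 and 358 CPM against 12.9, 13.9 and 23.1 CPM. Gm24474, a lincRNA on chromosome 12, was at 62.8, 78.5 and 191 CPM against 3.06, 3.05 and 11.6 CPM, and Glp2r, a receptor for a gut hormone, at 148, 143 and 76.9 CPM against 8.45, 8.97 and 3.71 CPM. Of the 10, 3 are antisense genes, which share their locus with another gene, and whether the counting used strand is not given in the sources used here. Uchl4 is an unspliced gene close in sequence to Uchl3, so its counts are uncertain too.

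Among the 10 lowest were Ccl9, Mpst, Ifitm3, 1700123O20Rik, Rpl35, Wfdc18, Gm10076 and Rpl32. Ifitm3, an interferon-induced membrane protein, was at 356, 379 and 194 CPM against 1659, 1570 and 778 CPM. Ccl9, a chemokine, had 3, 6 and 2 UMIs in Malat1-rich cells against 323, 335 and 52. Gm10076 is an unspliced gene of 384 bases.

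Gene content followed gene length. The share of genes called higher was 3.96% for gene bodies under 5 kb, 10.4% for 5 to 20 kb, 26.3% for 20 to 50 kb, 47.2% for 50 to 100 kb, 73.4% for 100 to 300 kb and 91.3% above 300 kb, beside 30.6% of all genes. The share called lower went from 35.9% and 10.7% to 1.33%, 0.183%, 0.158% and 0.299%, beside 7.2% of all genes. Relative to the median the share higher still went from 2.08% to 51.9% and the share lower from 64.0% to 0.299%. Without ribosomal protein and noncoding genes the shares higher ran from 2.00% to 91.2%. The median gene body was 75429 bases for genes called higher, 5161 bases for those called lower and 27427 bases for all tested, of which introns were 90.4%, 61.1% and 82.6%.

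**Figure D4:**
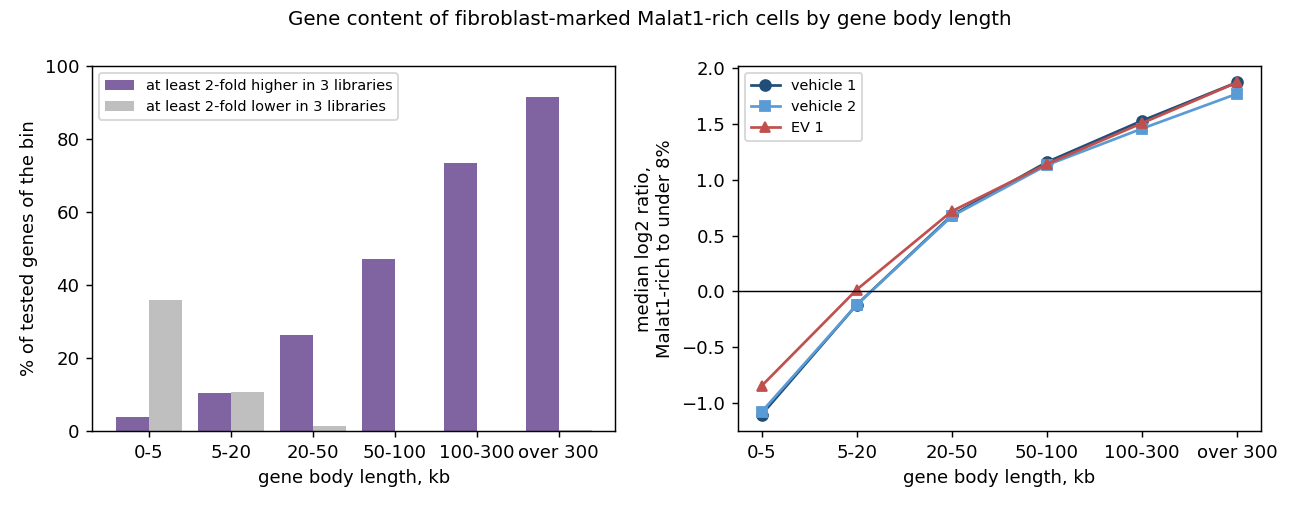
Left, percent of tested genes called at least 2-fold higher or lower in Malat1-rich fibroblast-marked cells in 6 bins of gene body length, and right, the median log2 ratio per bin with 1 line per library. The share higher climbs from 3.96% to 91.3% over the bins, and the 3 libraries give nearly the same medians.

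Across the 10269 genes, Spearman's rho between the log2 ratio and gene body length was 0.64, 0.64 and 0.65 in the 3 libraries, higher than for exonic length (0.50, 0.50 and 0.51) or for the intron share (0.47, 0.48 and 0.47). Genes are not independent replicates and share the libraries, so no p is given. By kind, 72.6% of 212 antisense genes, 61.0% of 164 lincRNAs and 59.2% of 120 processed transcripts were higher, against 28.8% of 9745 protein-coding genes. Of 239 unspliced genes, 11.7% were higher and 20.1% lower. Malat1-rich cells thus held relatively more UMIs of long, intron-rich and noncoding genes and fewer of short ones. Whether UMIs came from introns or exons was not analysed here, since the counts do not separate them.

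The content varied with the Malat1 share below 8% as well as above it, though ribosomal protein and chromatin regulator genes changed less beyond 12%. In fibroblast-marked cells of vehicle 1, ribosomal protein genes made up 24.1% of UMIs at a Malat1 share under 1%, 20.3% at 1% to 2%, 18.6% at 2% to 4%, 14.2% at 4% to 8%, 6.70% at 8% to 12% and 3.31% at 12% to 16%, beyond which they stayed between 3.20% and 3.65%. In EV 1 the share was 25.9% in the lowest bin, 9.85% at 8% to 12% and 3.5% above 20%. The step from the bin below the threshold to the one above it was accompanied by a median depth of 2930 against 1818 UMIs in vehicle 1, 3570 against 2012 in vehicle 2 and 2161 against 1538 in EV 1. Chromatin regulators ran the other way, from 0.146%, 0.153% and 0.111% in the lowest bin to 0.576%, 0.622% and 0.534% in the highest. The mt- share did not follow the Malat1 share to its end, as it was at its maximum of 5.37% at 12% to 16% in vehicle 1, 4.06% at 8% to 12% in vehicle 2 and 3.88% at 16% to 20% in EV 1, and at 3.30%, 3.20% and 3.05% in the highest bin. The bins hold from 57 to 839 cells, which share their libraries.

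**Figure D5:**
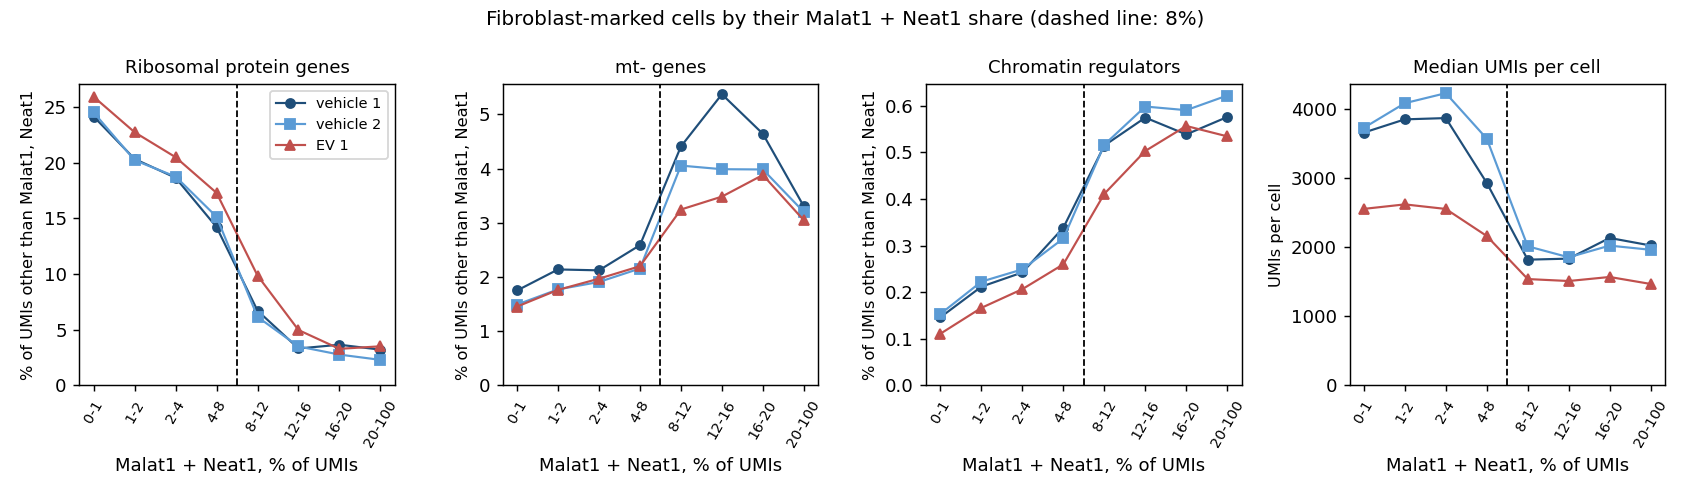
Percent of UMIs other than Malat1 and Neat1 from ribosomal protein, mt- and chromatin regulator genes, and median UMIs per cell, in fibroblast-marked cells grouped by Malat1 and Neat1 share in percent, with 1 line per library and a dashed line at 8%. Ribosomal protein genes go from 24.1% to 3.20% in vehicle 1 while chromatin regulators go from 0.146% to 0.576%.

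When cells were clustered without Malat1, Neat1 and the mt- genes, the Malat1-rich cells still fell mostly together. Of 6 clusters, cluster 4 held 2455 of the 2860 (88.1%, 87.1% and 84.4% of those in vehicle 1, vehicle 2 and EV 1), and 74.9% of its 3276 cells were Malat1-rich. Its leading genes included Fam227b, Gm24474, Gm42609, Gm2245, Htr2c, Gm48742, Gm20528, Gm10800 and Glp2r, and it made up 8.89%, 8.60% and 33.8% of the libraries. Clusters 2 and 3, with the highest fibroblast sums (2493 and 1931 CPM), held 117 and 275 Malat1-rich cells, and clusters 0 and 1, with the highest germ sums (2064 and 2600 CPM), held 11 and 0. Most cells of the former kind were in cluster 2 in the vehicle libraries (18.9% and 19.5% of kept cells, against 2.85% in EV 1) and in cluster 3 in EV 1 (50.9%, against 5.60% and 5.75%), so the cells under 8% with which Malat1-rich cells are compared were not alike in the arms. Cluster 5 lay at the other end, with a median Malat1 share of 0.0999% and 2 Malat1-rich cells among 820. The same genes made these clusters and the ratios above, so the clusters are a description of them and no separate support.

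The 52 germ-marked Malat1-rich cells were too few for firm values. In sums over 19, 17 and 16 cells, 1200 of 10271 genes (11.7%) were higher and 203 (1.98%) lower, and relative to the median gene 821 (7.99%) were higher and 530 (5.16%) lower. With 1 library left out, so that fewer libraries had to pass 2-fold, 980 to 1769 genes were higher and 429 to 538 lower. The tested genes differed there too, since over the same genes the count of 1200 could not fall. The added 0.5 UMI was worth 11.7, 14.1 and 21.2 CPM in these small sums, and 86 of the 1200 and 117 of the 203 genes had 0 UMIs in the Malat1-rich cells of at least 1 library, so such calls depend on it. The 10 highest were Magi2, Pcdh7, Mir100hg, 1700006J14Rik, Etv1, Maml2, Trps1, Gria3, Mecom and Slc4a4. Magi2, a scaffold protein of cell junctions, had 108, 121 and 64 UMIs in these cells, or 2528, 3423 and 2718 CPM against 39.0, 48.7 and 36.1 CPM in other germ-marked cells.

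Fibroblast genes were among those higher. Of 10 other fibroblast markers 5 were higher and 0 lower (4 higher relative to the median), and of 17 extracellular matrix genes 8 were higher and 0 lower (5), beside 11.7% of all genes higher (7.99%). Of the 4 germ sum genes 0 were higher and 1 lower. The germ sum itself was 1685, 1160 and 1274 CPM in them against 2409, 2501 and 2245 CPM in other germ-marked cells, and the fibroblast sum 328, 198 and 42.5 CPM against 132, 110 and 135 CPM. Ribosomal protein genes were lower in 9 of 81 with 0 higher (41 lower relative to the median), and G2/M genes in 7 of 24 with 0 higher (10), beside 1.98% of all genes lower (5.16%). Of the 24 G2/M genes, 7, 3 and 17 had 0 UMIs in the germ-marked Malat1-rich cells of the 3 libraries, so these calls depend in part on the added 0.5 UMI. Psma6, a proteasome subunit, had 0 UMIs in the Malat1-rich cells of each library, against 2170, 2498 and 62 UMIs in the others, and Stmn1, which destabilizes microtubules, had 11, 10 and 3 UMIs against 11677, 12945 and 302.

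Scrublet marked a larger part of these cells than of Malat1-rich cells in general, namely 9 of 19, 3 of 17 and 5 of 16, against 8.63%, 8.70% and 3.82% of other germ-marked cells. The marked cells held 52.0%, 28.1% and 48.1% of the UMIs of germ-marked Malat1-rich cells. Without marked cells in either group 1461 of 9875 genes (14.8%) were higher, 481 of them with 0 UMIs in a library, and 288 (2.92%) lower. Of other fibroblast markers 3 of 7 and of extracellular matrix genes 6 of 12 were then higher, and the fibroblast sum was 146, 236 and 81.8 CPM against 126, 96.9 and 132 CPM. Ribosomal protein genes were then lower in 51 of 81 and G2/M genes in 4 of 24, with 0 higher in both lists. The part of free RNA, and of doublets that were not marked, was not tested.

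Between the arms, Malat1-rich fibroblast-marked cells of EV 1 had 111 of 10269 genes (1.08%) at least 2-fold above both vehicle libraries and 294 (2.86%) at least 2-fold below both. Without vehicle 1 or vehicle 2 the higher genes were 179 and 195, more than 1.5 times as many, and the lower ones 288 and 262. A count over the same genes cannot fall when a vehicle library is left out, so the tested genes had changed too. The part of the reference library in these changes therefore cannot be told. With 1 EV library these counts have no replicate check. In cells under 8% the counts were 125 (1.22%) and 361 (3.52%). Malat1 itself stood at 158581, 161909 and 173106 CPM in Malat1-rich cells of vehicle 1, vehicle 2 and EV 1, and Neat1 at 1671, 1695 and 1504 CPM. The rule itself sets a floor to these levels, so nothing is read from their likeness.

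The 5 highest genes in EV 1 were Cxcl2, Prl8a9, Ghrh, Csf3 and Cryab. Cryab, a small heat shock protein, had 16, 17 and 190 UMIs, or 18.6, 17.3 and 122 CPM, and in cells under 8% it stood at 65.4, 80.3 and 327 CPM. Prl8a9, of the placental prolactin family, had 3, 2 and 41 UMIs, and Cxcl2, a chemokine, 0, 0 and 8 UMIs. The size of the Cxcl2 ratio, and so its rank, is therefore set by the added 0.5 UMI. In cells under 8% Cxcl2 stood at 1.37, 0.740 and 28.0 CPM and Prl8a9 at 1.59, 3.33 and 17.3 CPM. Both thus passed the minimum count of UMIs largely through EV 1, where they were high. The 3 metallothioneins were higher in Malat1-rich cells, summing to 956, 1067 and 4461 CPM, and also in cells under 8%, at 3257, 3082 and 11566 CPM, beside 1.08% and 1.22% of all genes higher. Malat1-rich cells of EV 1 thus shared the metallothionein and Cryab levels above vehicle of the other fibroblast-marked cells, at lower levels of both.

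The 5 lowest were Tex15, Dazl, Ccna2, Cenpk and Ifit3b, each with 0 UMIs in EV 1, so the size of their ratios rests on the added 0.5 UMI. Tex15 had 9 and 16 and Dazl 10 and 8 UMIs in the vehicle libraries, and these germ genes went with the smaller share of germ-marked cells in EV 1 given above, whose part in the difference was not tested. Ccna2, a cyclin, had 5 and 6 UMIs and Ifit3b, an interferon-induced gene, 6 and 5. Of G2/M genes 13 of 20 were lower in EV 1 and 0 higher, of S phase genes 8 of 23, and of interferon-stimulated genes 4 of 8, against 18 of 20, 14 of 23 and 6 of 8 in cells under 8%, beside 2.86% and 3.52% of all genes lower. These lists summed to 356, 385 and 105 CPM, to 434, 527 and 342 CPM, and to 351, 337 and 131 CPM in Malat1-rich cells. Ribosomal protein, respiratory chain, chromatin, speckle and mt- lists, of 80, 35, 22, 22 and 13 genes, gave 0 calls in either direction, and with 1.08% of all genes higher and 2.86% lower such counts say little about lists of these sizes. Ribosomal protein genes stood at 50151, 44207 and 63925 CPM.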

How the data were processed

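Droplet-based single-cell libraries had been made by the authors, and their reads counted with Cell Ranger 7.0.1 against mm10 and GENCODE vM23, per the labels and the study's methods. The values deposited by the authors were raw UMI counts per gene and barcode, without normalization, over 32285 genes. Cell Ranger counts intronic reads by default from its version 7, and whether that default was kept is not given in the sources used here. It bears on long genes, whose introns can then add UMIs.

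Cells were filtered at the limits the study gives for genes and mt- UMIs (more than 400 and fewer than 4000 genes, under 10% mt- UMIs), but the removal of doublets with DoubletFinder that the study describes was not repeated, and cells were chosen at 8% of UMIs. Counts were summed per library and class and expressed per 1000000 UMIs other than Malat1 and Neat1, and log2 ratios were formed with 0.5 UMI added. A gene entered with at least 200 UMIs in the class and was called at 2-fold in the same direction in all 3 libraries. No test was made, since the contrast is the one that chose the cells and the EV arm had 1 library with counts. Simulated counts for the fibroblast-marked comparison over 10269 genes held counting error only, with every gene but 200 left unchanged. Of the 200 genes changed by 4-fold 196 were called, and 0 of the others. This checks the calculation and says nothing about how often real genes are called wrongly. Gene structure and the printed sequences came from GENCODE vM21 (GRCm38), which holds 32235 of the 32285 gene IDs. Clusters were made with scanpy 1.11.5 and leidenalg 0.10.2 from the 2000 most variable genes, 30 components, 20 neighbours and a resolution of 0.5, and the caller Scrublet removed the highest scores at 0.8% per 1000 cells in one alternative. Python 3.11.15, numpy 2.4.6, scipy 1.17.1, pandas 2.3.3 and matplotlib 3.10.9 were used. The titles of the samples gave group and replicate.

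The members, the gene lists and the thresholds were chosen with earlier results of these data known. Genes named are those of the lists, the 10 highest and 10 lowest by their least extreme library in fibroblast-marked and in germ-marked cells, the 5 highest and 5 lowest of EV 1 outside the vehicle range within Malat1-rich cells, and genes leading a cluster. Other thresholds, Malat1 alone, doublet removal, denominators, minimum counts, longer marker lists, a fixed depth band, median scaling and leaving out each library were tried. A few genes that these rules name are not reported here.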

Additional observations from a re-analysis of the deposited data

Results flagged for a closer look

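In fibroblast-marked cells, 2 lists had the vehicle libraries and EV 1 on opposite sides of 0. Lists in the few germ-marked cells were not screened for this. The median log2 ratio of 23 S phase genes, Malat1-rich to other fibroblast-marked cells, was -0.43 and -0.21 in vehicle 1 and vehicle 2 and 0.29 in EV 1, from genes with at most 109 UMIs in the Malat1-rich cells of EV 1. The median of the 4 fibroblast sum genes was -0.04 and -0.00 in the vehicle libraries and 0.25 in EV 1. Neither difference was tested, and with 1 EV library each rests on that library.

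Among barcodes outside the filters, which enter no comparison, 48.2% were Malat1-rich in EV 1 (95% Wilson interval 42.3% to 54.1%), above 22.5% (18.7% to 26.9%) and 19.1% (15.5% to 23.2%) in the vehicle libraries. In EV 1, 45 of these 131 barcodes had too few genes, against 8 in each vehicle library.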

How the results depend on the processing

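The share of Malat1-rich cells stayed higher in EV 1 by 33.7 points at a threshold of 5%, 16.3 at 12%, 24.7 with Malat1 alone and 24.5 without doublets, and in fibroblast-marked cells by 17.2, 8.94, 13 and 12.3, with 24.9 and 12.7 to 13.1 when either vehicle library was left out. The median UMI ratio, 0.706 as the mean of 3 libraries, was 0.815 at 5%, 0.546 in fibroblast-marked cells and 1.14, the other direction, in germ-marked cells (0.669 to 0.758 without 1 library). The mt- difference of 1.26 points was 0.722 at 5%, 0.763 over all UMIs and 1.96 without the mt- limit (1.18 to 1.38 without 1 library). The germ sum's mean log2 ratio of -3.52 was -4.86 in cells of 1000 to 2000 UMIs (-3.88 to -3.17 without 1 library). That of the fibroblast sum, 0.10, was -0.0398 at 12%, -0.10 over all UMIs and 1.34 in cells of 1000 to 2000 UMIs, and -0.02 and -0.0537 without vehicle 1 and vehicle 2 (0.36 without EV 1), so its direction rests on single libraries. For these changes the cause was not tested.

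In fibroblast-marked cells the 3138 genes higher were 905 after median centring, 11303 of 26313 with a minimum of 1 UMI, 4821 of them with 0 UMIs in the Malat1-rich cells of a library and so set by the 0.5 UMI added, and 789 of 3135 genes in cells of 1000 to 2000 UMIs (2937 to 3088 without 1 library), and the 739 lower were 127 at 5% and 1850 after centring (789 to 1036). In germ-marked cells the 1200 of 10271 higher were 3108 of 10271 at 12%, and 3755 of 13909 and 13719 of 23920 at minima of 50 and 1 UMI. They were 3445 of 9614 by longer lists and 672 of 6512 in cells of 1000 to 2000 UMIs (980 to 1769 without 1 library). Of these, in the same order of settings, 2479, 2356, 12236, 3306 and 220 likewise had 0 UMIs in a library. The 203 lower were 75 at 5%, 355 over all UMIs, 3 of 9614 by longer lists and 530 after centring (429 to 538). Without 1 library a count over the same genes cannot fall, so where it did the tested genes had changed. By longer lists, which left 3, 4 and 1 cells, the ratios of 4930447C04Rik, Sema4d, Endog, Emc2, Akr7a5 and Exo1 were 0.00426, 0.69, 0.10, 0.45, 0.51 and 0.0420, from at most 1 UMI of each in those cells, so these values come from the added 0.5 UMI and give no direction. The EV counts of 111 and 294 were 222 and 635 at a minimum of 50 UMIs, which lets in more genes. Without vehicle 1 or vehicle 2 they were 179 or 195 and 288 or 262, also over other sets of tested genes. The other named genes kept their direction under every alternative run, in 448 of 454 values in all, and list medians in 299 of 321, the rest being fibroblast sum, other germ markers, spermatogonial state, immediate early, apoptosis and S phase genes. The named genes were picked as the most extreme in these same libraries, so their kept direction is no separate support.

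No paired analysis was possible because the arms share 1 replicate number with counts. The small number of germ-marked Malat1-rich cells limits every value given for them.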
